A study of Silurus lanzhouensis with 6 samples.

Results

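The transcripts described here were found in back muscle of all 6 sequenced fish of the catfish Silurus lanzhouensis and stood higher in every one of the 3 lightest fish than in any of the 3 heaviest. They were chosen by their FPKM values, which express fragments relative to transcript length and to the size of the library, in a table of 89579 clusters of assembled transcripts. A cluster had to be above 0 in all 6 fish, with a mean of at least 10 and under 100 FPKM, a range called the level window below. Within it, clusters were ranked by the lowest lightest fish divided by the highest heaviest fish, and the 100 with the largest ratio above 1 were taken. The level window held 4058 clusters, of which 403 had a ratio above 1, so the members are the upper part of those 403. Because this ratio chose the members, their difference between the groups is given as a description and carries no test.

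Both groups came from 1 rearing tank with flowing pond water at about 24 °C, in which fingerlings of the F3 generation, from F2 selected females and wild males, grew for 16 weeks. The 3 heaviest and the 3 lightest fish of that tank were compared, which asks what differs in muscle between fish at opposite ends of the weight range. All were killed with the anaesthetic MS-222 before sampling. The sources used here give no sex, body weight, batch or sequencing date for single fish, and only the extremes of 1 tank were sampled.

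Back muscle of fish is mainly fast white muscle, a tissue of large fibres used for bursts of swimming. It grows by adding new fibres and by enlarging those already present, and its growth depends on the balance of protein synthesis and breakdown. Cluster IDs come without gene names in these files, so no function can be given for any member, and the label of muscle could not be checked against marker genes. Members are therefore called by their rank in the ratio. In whole tissue, fewer cells of a type and less RNA per cell cannot be told apart.

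The members fell into 2 kinds by the size of the difference. In 14 members the mean of the lightest fish was at least 20 times that of the heaviest, with fold differences of 21.3 to 397. In the other 86 the fold difference ran from 1.32 to 5.56, with a median of 1.81, and no member lay between 5.56 and 21.3. Over all 100 the median fold difference of the means was 1.85, against 1.04 over the 4058 clusters of the level window. The heaviest fish had a mean under 10 FPKM in 33 members, all 14 at 20-fold or more included, which reached the window through the lightest fish. A mean difference of at least 2-fold was present in 42 members and of at least 1.5-fold in 92.

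**Figure D1:**
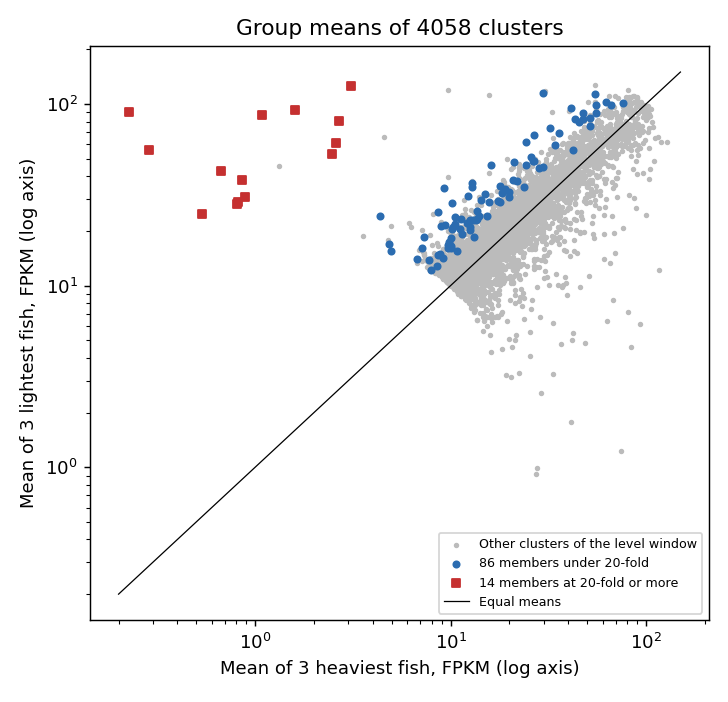
Mean FPKM of the 3 heaviest fish (x axis, log scale) against that of the 3 lightest (y axis, log scale) for the 4058 clusters of the level window. The 14 members at 20-fold or more, drawn as squares, have heaviest means of 0.227 to 3.08 FPKM and stand apart from the 86 others, which run beside the line of equal means.

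The member of rank 1, Cluster-6468.27559, had 0.53, 0.91 and 0.57 FPKM in heaviest fish 1, 2 and 3. In lightest fish 1, 2 and 3 it had 13.74, 62.79 and 52.06 FPKM. All 3 lightest fish were thus at least 15.1 times the highest heaviest fish, although lightest fish 1 was well below the other two. The group means were 0.670 ± 0.209 and 42.9 ± 25.8 FPKM (SD, n = 3 each), and the log2 difference of log2(FPKM + 1), lightest minus heaviest, was 4.47 with an SE of 0.55 in limma. It was the only member at 20-fold or more that was high in lightest fish 2.

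The other 13 members at 20-fold or more shared a different pattern, recognised after their values were seen. They were high in lightest fish 1 and 3, low in lightest fish 2 and lower still in the heaviest fish. The member of rank 2, Cluster-6468.7443, had 133.27, 5.95 and 130.96 FPKM in lightest fish 1, 2 and 3, beside 0.4, 0.19 and 0.09 FPKM in the heaviest fish. Its means differed 397-fold, but the heaviest fish were so near 0 that this fold may rest on a few fragments. On the log2(FPKM + 1) scale the difference was 5.35 with an SE of 1.13. The groups did not overlap, yet lightest fish 2 lay nearer to the heaviest fish than to the rest of its own group.

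The same shape was present at every level among the 13. Values of a member are given in the order of fish 1, 2 and 3 of each group. Rank 3 was at 100.6, 5.38 and 61.97 FPKM in the lightest and at 0.52, 0.28 and 0.06 FPKM in the heaviest fish. Rank 4 was at 155.7, 13.09 and 110.59 FPKM in the lightest and at 2.65, 0.91 and 1.22 FPKM in the heaviest fish. In both, lightest fish 2 was far below lightest fish 1 and 3 but above every heaviest fish.

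Rank 5 was at 151.16, 9.73 and 99.56 FPKM in the lightest and at 2.28, 0.31 and 0.67 FPKM in the heaviest fish. Rank 6 was at 52.89, 4.13 and 29.43 FPKM in the lightest and at 0.48, 1.05 and 0.91 FPKM in the heaviest fish. Rank 6 differed from the others given here in that heaviest fish 1 was the lowest of the heaviest. Rank 9, the most abundant of them, reached 186.46, 11.97 and 177.25 FPKM in the lightest fish and 5.71, 1.65 and 1.87 FPKM in the heaviest fish. Rank 12, picked as the lowest of the 13 in lightest fish 1, was at 41.77, 2.22 and 30.32 FPKM in the lightest and at 1.28, 0.18 and 0.15 FPKM in the heaviest fish. In ranks 9 and 12 lightest fish 2 was the lowest of its group, and heaviest fish 1 was the highest of the heaviest.

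Across these 13 members, ratios among the lightest fish were narrower than ratios to the heaviest fish. The choice kept lightest fish 2 above every heaviest fish but set no lower limit on the heaviest fish beyond 0. Many of their values were under 1 FPKM and may rest on a few fragments, so the contrast in width is a description. Lightest fish 1 was 11.9 to 22.4 times lightest fish 2, with a median of 18.4. Lightest fish 3 was 0.556 to 1.07 times lightest fish 1, with a median of 0.705. Heaviest fish 1 was the highest of the heaviest fish in 11 of the 13, at a median of 2.88% of the level in lightest fish 1 (0.300% to 4.23%). The medians were 0.584% for heaviest fish 2 (0.135% to 3.15%) and 0.974% for heaviest fish 3 (0.0596% to 1.80%). Pairwise Pearson correlations of log2(FPKM + 1) over the 6 fish ran from 0.960 to 0.999 across the 13. These rest on 6 shared libraries in which 2 fish are far above the rest, so they describe the shape and are no measure of independent likeness.

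**Figure D2:**
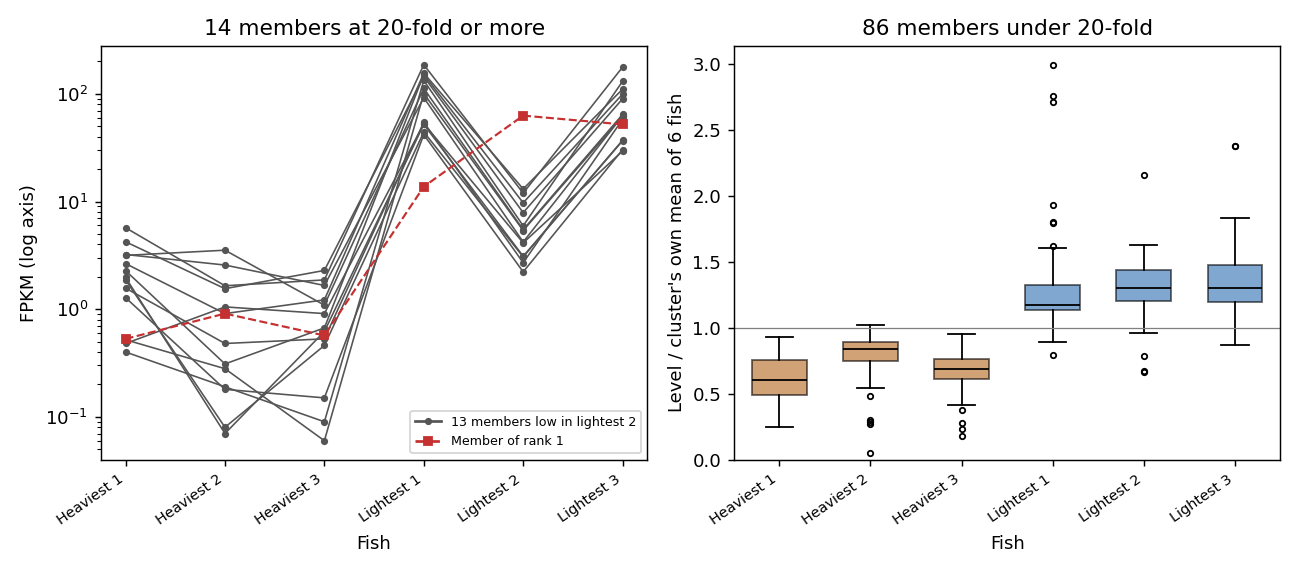
Left, FPKM (log axis) in each fish for the 14 members at 20-fold or more, with 1 line per member; 13 dip in lightest fish 2 and the member of rank 1, dashed, does not. Right, level in each fish divided by the cluster's own mean of 6 fish for the 86 other members, as box plots (line, median; box, quartiles; whiskers, values within 1.5 box lengths), with medians of 0.602 to 0.837 in the heaviest and 1.17 to 1.31 in the lightest fish.

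The pattern reached beyond the members, because the level window and the demand for values above 0 kept other clusters out. In the whole table, 58 clusters were at 10 FPKM or more in lightest fish 1 and 3, at least 10 times every heaviest fish there and at least 5 times lightest fish 2. Of these, 13 were members and 45 were not. Of the 45, 38 were listed at 0 in at least 1 fish, and 23 of those in all 3 heaviest fish. A further 3 had means of 100 FPKM or more and 3 had means under 10 FPKM. The remaining 1 was inside the window but was at 1.86 FPKM in lightest fish 2 and reached 5.92 FPKM in a heaviest fish, a ratio of 0.314.

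The most abundant cluster with this pattern reached 816.69, 54.93 and 893.67 FPKM in the lightest fish and 28.7, 3.27 and 7.5 FPKM in the heaviest fish. Together the 58 clusters held 0.566%, 0.0298% and 0.504% of summed FPKM in lightest fish 1, 2 and 3. They held 0.00935%, 0.00317% and 0.00368% in heaviest fish 1, 2 and 3. That lightest fish 2 and the heaviest fish were far below lightest fish 1 and 3 follows from how the 58 were picked. In these shares lightest fish 2 was above each heaviest fish, which held by choice in the 13 that were members. What sets lightest fish 1 and 3 apart was not tested.

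The 13 members moved up when lightest fish 2 was left out: they then took ranks 1 to 13, with ratios of 18.2 to 327. The pattern itself asks for lightest fish 1 and 3 at 10 times every heaviest fish or more. High ratios without lightest fish 2 therefore follow from how the 13 were recognised. All 13 were chosen again without heaviest fish 1 and without heaviest fish 3. When lightest fish 1 was left out 8 of the 13 were chosen again, without heaviest fish 2 it was 10 and without lightest fish 3 it was 11. Leaving out a fish cannot lower a member's ratio. A member is lost where its mean over the remaining fish leaves the level window or where other clusters rank above it.

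Among the 86 members of smaller difference, those of rank 7 and 8 had the largest ratios. Rank 7 had 9.51, 14.43 and 14.63 FPKM in the heaviest fish and 38.81, 33.96 and 37.37 FPKM in the lightest fish. Its means were 12.9 ± 2.90 and 36.7 ± 2.49 FPKM (SD, n = 3 each), a 2.86-fold difference. The 3 lightest fish lay within a narrow range, more than 2-fold above the highest heaviest fish.

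Rank 8 was at 14, 18.37 and 15.88 FPKM in the heaviest and at 42.24, 39.13 and 56.89 FPKM in the lightest fish. Its means were 16.1 ± 2.19 and 46.1 ± 9.48 FPKM (SD, n = 3 each), a 2.87-fold difference. Rank 10 was at 16.36, 6.77 and 15.37 FPKM in the heaviest and at 33.28, 34.28 and 36.89 FPKM in the lightest fish. Heaviest fish 2 was low in this member, whereas the lightest fish were close together.

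**Figure D3:**
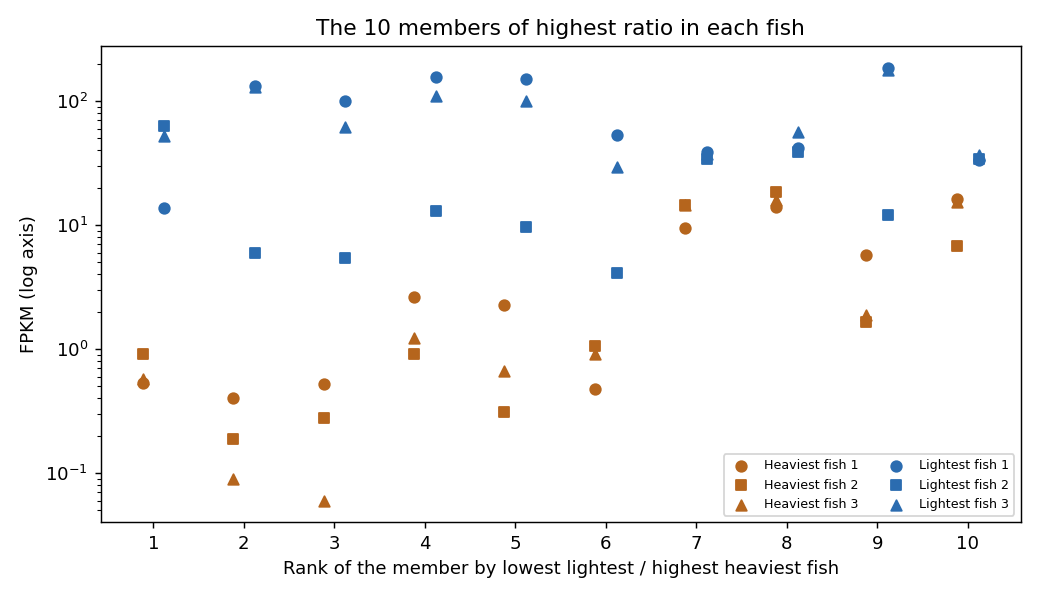
FPKM in each fish (y axis, log scale) for the members of rank 1 to 10 (x axis), with 1 point per fish. Ranks 1 to 6 and 9 have heaviest fish at or below 5.71 FPKM, and the group means of ranks 7, 8 and 10 are less than 3-fold apart.

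The group means of the 3 most abundant members differed 1.33-fold to 2.08-fold. Rank 89 had the highest mean and was at 78.1, 77.76 and 71.64 FPKM in the heaviest and at 95.66, 111.14 and 96.13 FPKM in the lightest fish, a 1.33-fold difference of the means. Rank 29 was at 36.63, 68.19 and 59.72 FPKM in the heaviest and at 98.1, 123.99 and 119.36 FPKM in the lightest fish, a 2.08-fold difference. Rank 97 was at 41.3, 77.61 and 67.28 FPKM in the heaviest and at 94.17, 99.21 and 115.63 FPKM in the lightest fish, a 1.66-fold difference. In ranks 29 and 97 heaviest fish 1 was far below heaviest fish 2 and 3, which set the upper edge of the group.

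The least abundant members lay just above the lower bound of 10 FPKM. Rank 52 was at 7.68, 8.12 and 7.91 FPKM in the heaviest and at 15.01, 10.61 and 10.79 FPKM in the lightest fish. Rank 18 was at 2.7, 7.71 and 4.5 FPKM in the heaviest and at 16.57, 12.36 and 17.58 FPKM in the lightest fish. Rank 92 was at 4.34, 10.44 and 5.5 FPKM in the heaviest and at 13.47, 15.7 and 12.77 FPKM in the lightest fish. The heaviest fish were nearly equal in rank 52 and spread widely in ranks 18 and 92.

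The spread within the lightest fish ranged from almost none to nearly as large as the mean. Rank 43 was the steadiest, at 32.26, 32.71 and 33.05 FPKM in the lightest fish, a coefficient of variation of 1.21%, and at 16.54, 24.14 and 18.86 FPKM in the heaviest. Rank 38 followed, at 23.06, 23.44 and 22.18 FPKM in the lightest (2.82%) and at 10.11, 15.83 and 11.69 FPKM in the heaviest fish. The largest values were 88.1% in rank 20 and 85.5% in rank 3, which both belong to the 13 members low in lightest fish 2. Rank 20 was at 112.19, 5.48 and 64.41 FPKM in the lightest and at 3.16, 3.53 and 1.09 FPKM in the heaviest fish. Over the 86 members the median coefficient of variation was 12.2% in the lightest and 22.9% in the heaviest fish, and over the level window it was 15.4% and 26.0%. The ranking favours small spread, so these medians are given as a description.

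Within the heaviest group the fish did not contribute alike. Among the 86 members heaviest fish 1 was the lowest of the heaviest in 52 (60.5%), against 28.3% of the clusters of the level window. Heaviest fish 2 was the highest in 58 (67.4%), against 48.7%, and so most often set the limit that the lightest fish had to pass. Within the lightest group, lightest fish 1 was the lowest in 46 (53.5%), against 41.0%. The choice used these same values, so the shares among the 86 are given as a description. Heaviest fish 1 also stood apart over the 28592 clusters tested by limma. Its mean Pearson correlation of log2(FPKM + 1) with the other 5 fish was 0.751, against 0.805 to 0.818 for the others. Without heaviest fish 1, 623 clusters had a ratio above 1 and 57 of the 100 members were chosen again. These numbers lay within the range for the other 5 fish left out in turn, 472 to 1190 clusters and 36 to 75 members.

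Members were spread over the level window much as other clusters were. In the range of 10 to 20 FPKM lay 46 members (46.0%), against 52.3% of the window, in 20 to 50 FPKM 37 (37.0%), against 35.9%, and in 50 to 100 FPKM 17 (17.0%), against 11.8%. All 100 had 6468 as the part of their ID before the point, as did 99.7% of the window. In 2 pairs of members the numbers after the point were consecutive, and no like count over the level window is given. The pair of rank 3 and rank 5 shared the pattern low in lightest fish 2. The other pair was rank 7, given above, and rank 70, which was at 28.4, 32.05 and 28.95 FPKM in the heaviest and 40.63, 51.13 and 42.45 FPKM in the lightest fish.

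The limit of 100 members fell where neighbours hardly differed. The last inside were rank 99 with a ratio of 1.210 and rank 100 with 1.208, and the next outside had ratios of 1.207 and 1.206. Rank 100 was at 18.45, 33.4 and 28.69 FPKM in the heaviest and at 43.7, 40.36 and 61.04 FPKM in the lightest fish. The cluster next below was at 39.1, 44.24 and 47.35 FPKM in the heaviest and at 60.08, 57.15 and 58.24 FPKM in the lightest fish.

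Every lightest fish was above every heaviest fish in 403 of the 4058 clusters of the level window, or 9.93%, and in all 100 members by choice. The same ranking was made, as a description, for the other 19 ways to set 3 fish above the remaining 3, which share fish with each other. They gave 31 to 674 clusters with a ratio above 1, with a median of 151. The count of 674 was for heaviest fish 2 with lightest fish 2 and 3, a mixed set that exceeded the 403. The heaviest fish above the lightest gave 190. The ratio at rank 100 was 1.21 for the lightest fish and 0.914 to 1.25 for the others, again with that mixed set above. The number of clusters without overlap therefore did not set the lightest fish apart from every other set of 3.

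The counts of large ratios are also a description, since the ratio chose the members. A ratio above 2 was reached by 10 clusters, against 0 to 5 in the other 19 rankings, and a ratio above 4 by 5 clusters, against 0 or 1. Of the 10, 6 belonged to the 13 members low in lightest fish 2. Without the 13, 4 clusters had a ratio above 2, which is within the range of the other rankings, and 390 had a ratio above 1. A ratio above 1.5 was reached by 21 clusters with the 13 and by 9 without them, against 0 to 20 in the other rankings. The 13 were recognised after their values were seen and were taken out of this ranking only. The other rankings kept all their clusters, so the counts without the 13 are not a like comparison, and nothing is read from them.

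**Figure D4:**
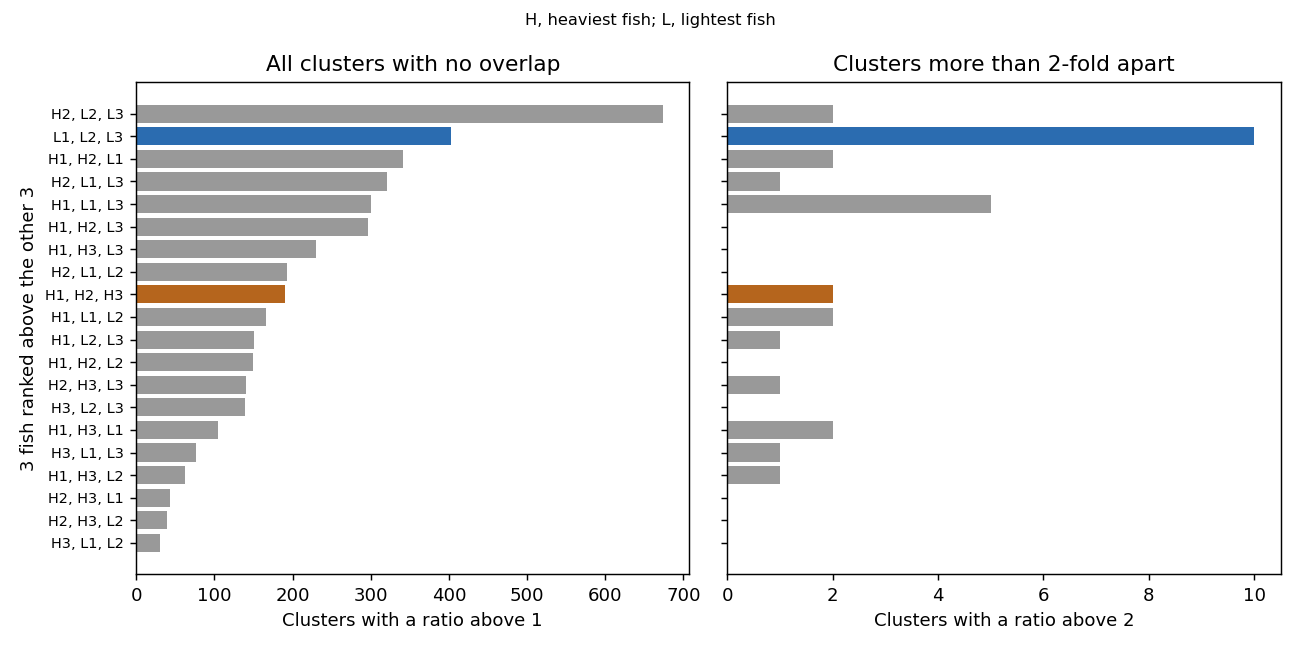
Number of clusters of the level window with a ratio above 1 (left) and above 2 (right) for each of the 20 sets of 3 fish ranked above the remaining 3 (H, heaviest fish; L, lightest fish). The lightest fish are second on the left with 403 clusters, below a mixed set with 674, and have the longest bar on the right with 10.

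Fish that take no part in a choice give values that the choice did not use. The 100 clusters were therefore chosen anew in 2 heaviest and 2 lightest fish and read in the pair left out, for each of the 9 pairs. The 9 lists held 26 to 54 of the members. In the pair left out, their median log2 difference of log2(FPKM + 1), lightest minus heaviest, had a median of 0.34 over the 9 pairs, against 0.88 for the members in all 6 fish. It was highest at 0.67 for heaviest fish 3 with lightest fish 3, where 83 of 100 clusters were higher in the lightest fish, beside 77.6% of all clusters that could be chosen there. It was -0.034 for heaviest fish 1 with lightest fish 2, where 48 of 100 were higher, beside 51.0% of all.

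The level window was formed anew in the 4 fish of each choice and held 3882 to 4324 clusters. These also differed within the pair left out, by a median of -0.068 to 0.33. In the values as deposited, the chosen clusters were above that median in 8 of the 9 pairs, by up to 0.59. The exception was heaviest fish 1 with lightest fish 2, at -0.054. With heaviest fish 2 and lightest fish 1 left out, the chosen clusters had a median log2 difference of -0.00056, and 49 of 100 were higher in the lightest fish, beside 42.4% of all. The 9 pairs share fish and clusters, so no test was made over them.

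**Figure D5:**
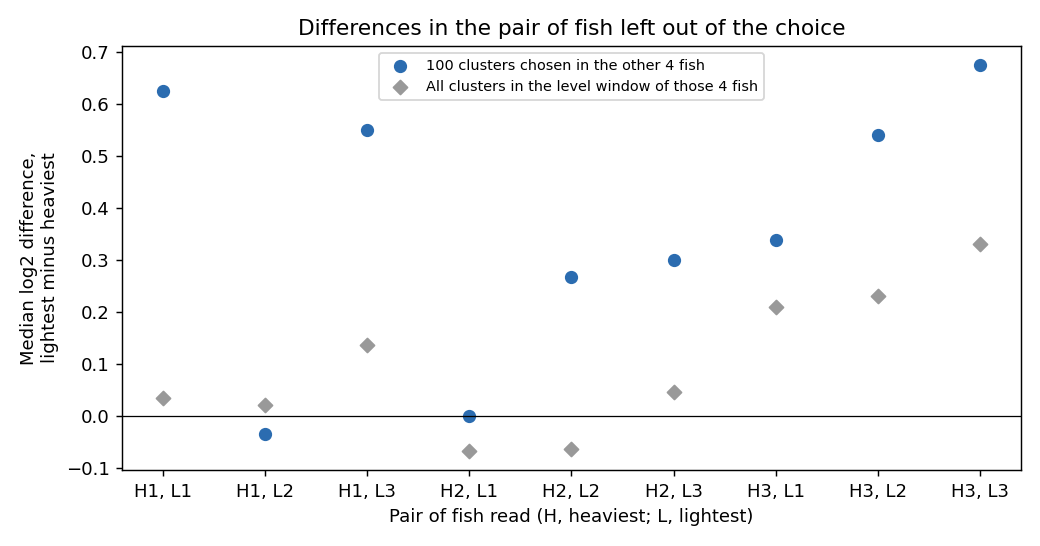
Median log2 difference of log2(FPKM + 1), lightest minus heaviest (y axis), in each pair of 1 heaviest and 1 lightest fish (x axis; H, heaviest; L, lightest). Circles are the 100 clusters chosen in the other 4 fish, and diamonds all clusters in the level window of those 4 fish; circles lie above diamonds in 8 of 9 pairs and fall below 0 in 2.

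In the limma comparison over 28592 clusters, 3 of the 100 members were called higher in the lightest fish, those of rank 1, 7 and 8. All clusters tested were called in this direction in 0.651% of cases and those of the level window in 0.0739%, which is the same 3 clusters. The contrast is the one that chose the members, so nothing is read from these shares. None of the 13 members low in lightest fish 2 was among the 3. Leaving out lightest fish 2 gave 13 calls among the members, which were those 13, and none of ranks 1, 7 and 8. Over all clusters tested, that fit called 357 higher in the lightest fish. The 13 were recognised by their high values in lightest fish 1 and 3, so nothing is read from their calls. Among the members, leaving out heaviest fish 1, heaviest fish 3 or lightest fish 1 gave 1 call each. Leaving out heaviest fish 2 gave 4, and lightest fish 3 gave 0. Over all clusters tested, these fits called 218, 218, 280, 221 and 274 higher in the lightest fish, in the same order. In the fit without lightest fish 3, 82 members were at an unadjusted limma p under 0.05, beside 6.40% of all clusters tested, counted in both directions. The members were chosen on this contrast, so that number is a description. Median-ratio scaling and the replicate number as a block each gave 1 call among the members, beside 187 and 92 over all clusters tested.

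A scaling between fish moved the balance of directions in the level window. As deposited, 403 clusters had the lightest fish above and 190 the heaviest fish above, so that 68.0% of those without overlap were higher in the lightest fish. With the window formed anew on the rescaled values, median-ratio scaling gave 214 and 348 (38.1%), and quantile normalization 305 and 336 (47.6%). Shares over all clusters of those new windows are not given here. Of the 100 members, 90 kept every lightest fish above every heaviest fish with median-ratio scaling and all 100 did with quantile normalization. Nothing is read from these numbers, since the choice took the clusters with the widest gaps. Applied anew to the rescaled values, the rule chose 72 of the 100 again with median-ratio scaling and 73 with quantile normalization. The members' median log2 difference was 0.88 as deposited, 0.81 with median-ratio scaling and 0.83 with quantile normalization. Beside these stood 0.08, 0.01 and 0.04 over the clusters of the level window as deposited.

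Most members were not chosen again in every omission of 1 fish. Leaving out a fish cannot lower a member's ratio. A loss therefore reflects the cut at 100 members or the level window formed anew, and not a vanished difference. In 22 of the 100 the choice held through all 6 omissions of 1 fish, and 8 of those 22 were among the 13 low in lightest fish 2. The others included ranks 1, 7, 8 and 10. Rank 17 was also among them, at 26.94, 55.14 and 41.3 FPKM in the heaviest and 94.8, 89.82 and 101.02 FPKM in the lightest fish. So was rank 14, at 7.78, 11.88 and 11.03 FPKM in the heaviest and 21.57, 20.37 and 20.87 FPKM in the lightest fish. In both, the lightest fish were close together and the heaviest fish spread more widely.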

How the data were processed

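RNA of back muscle from 6 fish was sequenced, 3 per group, with groups taken from the labels. The deposited values are FPKM, made by the authors, with 1 column per fish, 1 value per cluster and 2 decimals. The assembler, aligner and counting tool are not stated in the sources used here, and depth is unknown, so no counting error is given. The other deposited tables, on transcript lengths and FPKM intervals, were not used here.

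Members were chosen with Python 3.11.15 and pandas 2.3.3, with the rule stated above, and members and lists were chosen with earlier results of these data known. limma 3.58.1 in R 4.3.3 compared 2 groups on log2(FPKM + 1) with a variance trend over the 28592 clusters whose mean reached 1 FPKM, two-sided, with Benjamini-Hochberg adjustment and a threshold of 0.05. This step was tested on simulated data. Such fold changes understate changes of low clusters. Described by rule were ranks 1 to 10, the 3 most and 3 least abundant, and the 2 steadiest and 2 most variable in the lightest fish. The rule also named members called by limma, clusters at the limit and any members sharing an ID part before the point other than 6468. Members with consecutive numbers after the point were not part of that rule. Ranks 12, 14 and 17 and the pattern low in lightest fish 2 were picked after their values were seen. Alternatives were other scalings, pseudocounts, level bounds, ways to rank, limma settings and each fish left out.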

Additional observations from a re-analysis of the deposited data

How the results depend on the processing

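The settings for scaling in fish left out of the choice, and the opposite direction under each scaling, were added after the data were seen. The 403 clusters with a ratio above 1 became 214 with median-ratio scaling, 205 with a lower bound of 20 FPKM and 656 with 5 FPKM, and 472 (without lightest fish 3) to 1190 (without heaviest fish 2) with 1 fish left out. Fewer fish and another bound make the count larger or smaller by construction, and so change which clusters are among the first 100. Of the 100 members, 54 were chosen again with a lower bound of 20 FPKM and 54 with 5 FPKM. The bound of 20 FPKM shut out the 46 members with a mean of 10 to 20 FPKM by construction and kept all the others. With the bound of 5 FPKM, members were lost to other clusters that ranked above them. It was 45 when ranked by the ratio of means and 30 by the ratio of medians. With 1 fish left out it was 36 (without heaviest fish 2) to 75 (without lightest fish 3).

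The median log2 difference of the members was 0.77 to 1.01 with 1 fish left out. In pairs left out of the choice it was 0.62, -0.034 and 0.55 for heaviest fish 1 with lightest fish 1, 2 and 3, then -0.00056, 0.27 and 0.30 for heaviest fish 2, and 0.34, 0.54 and 0.67 for heaviest fish 3. Their median of 0.34 was 0.28 with median-ratio scaling and 0.35 with quantile normalization. Which pairs fell below 0 depended on the scaling. With median-ratio scaling heaviest fish 1 with lightest fish 2 was at 0.28, beside 0.29 over all clusters that could be chosen there. Heaviest fish 3 with lightest fish 1 was at -0.16, beside -0.15, and heaviest fish 2 with lightest fish 3 at -0.0024, beside -0.063. With quantile normalization all 9 pairs were above 0. The chosen clusters were above the median over all such clusters in 7 of 9 pairs with median-ratio scaling and in 9 with quantile normalization.

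Of the 3 members called by limma, 0 were called among clusters above 0 in all 6 fish, where no cluster higher in the lightest fish passed the adjustment. In that fit 99 members were at an unadjusted limma p under 0.05, beside 7.69% of all clusters tested, counted in both directions. The members were chosen on this contrast. Among the members, median-ratio scaling gave 1 call, the replicate block 1, and leaving out 1 fish 0 (without lightest fish 3) to 13 (without lightest fish 2). Over all clusters tested, leaving out 1 fish gave 218 to 357 calls higher in the lightest fish. The deviations from the group means had correlations of 0.171, 0.065 and 0.056 for fish of equal number. All 3 were above those for unequal numbers, which ran from -0.104 to 0.051. Whether the numbers stand for a pairing or a shared batch is not stated in the sources used here and was not tested. The main fit leaves the numbers out, and the calls depend on this. Values of the heaviest fish under 1 FPKM limit the folds of most members at 20-fold or more. In ranks 9, 11, 20 and 51 no heaviest fish was under 1 FPKM.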
